A study of Cricetulus griseus with 24 samples.

Results

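Chinese hamster ovary cells in stationary phase were compared between the amplified antibody-producing line A1 (3 cultures) and A0, the line from which it was selected (4 cultures), which makes 7 of the 24 samples of the series. The samples were chosen by cell line and growth phase alone, and no measured value was used. Both lines descend from DG44, a CHO host line, and carry a heavy chain plasmid and a light chain plasmid with neomycin resistance, from which they make a humanized IgG. A0 was not amplified, and A1 was obtained from it by growth in stepwise rising methotrexate, so that both lines carry the same plasmids and differ in the history of drug selection. All cultures were grown in serum-free suspension. Each line is a single selected line, so line and amplification cannot be told apart from the history of that line. The p-values measure the spread between cultures of a line, not between independently selected lines. In a later fit of 3 groups they measure the spread within smaller sets of cultures. The labels give the phase as stationary without an hour. RNA was measured by RNA-seq of polyadenylated RNA as read counts per gene, and levels are given in CPM, counts per 1000000 counts assigned to genes, after TMM scaling of the 7 libraries. Where several values follow a gene they are in the order of the culture numbers. CHO-S, a line that makes no antibody, served to compare levels and entered no test between lines. Its cultures are titled NDST in the sample labels, and what that label stands for was not examined.

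As background, methotrexate is an antifolate that starves cells of thymidylate and purines, and stepwise rising doses are used to select cells that carry more copies of a transfected plasmid and make more of its product. In stationary phase, CHO cells divide little while they keep secreting antibody. Antibody chains enter the endoplasmic reticulum (ER) through the translocon, are folded by chaperones such as BiP, receive N-glycans and leave through the Golgi apparatus, while the unfolded protein response and the ATF4 branch of the integrated stress response adjust folding capacity, amino acid supply and translation.

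The A0 cultures fell in 2 sets by their culture numbers, 1 and 2 against 3 and 4. In the 10620 genes whose mean reached 5 CPM, the median absolute log2 difference between a pair of cultures was 0.08 to 0.10 within an A0 set, 0.16 to 0.19 between the A0 sets, 0.09 to 0.11 within A1, 0.30 to 0.32 between A1 and A0 cultures 1 and 2, and 0.26 to 0.27 between A1 and A0 cultures 3 and 4. The labels name no batch for these sets, which were noticed in earlier results of these data, so the differences between them are a description. The test of A1 against all 4 A0 cultures took these as separate cultures and took no account of the sets. A1 belongs to neither set by the labels, so a difference of the kind that parts the sets cannot be told apart from line. The totals assigned to genes were 10727892 to 12913264 counts in A0 and 6532373 to 12140773 in A1, the lowest in A1 culture 1. Reads that did not align made up 6.43% to 9.41% in A0 and 10.3% to 11.5% in A1, and their part in the results was not tested. The 4 genes chosen as present in CHO lines (Vim, Actb, Lgals1 and S100a6) had at least 295.6 CPM in every culture. St6gal1 and Mgat3, which are known to be silent in CHO cells, had at most 1.35 and 0.178 CPM. Of the 10 markers of other cell types found in the table, Cd68 alone exceeded 3.09 CPM in a culture, Snap25 had no count, and the sum without Cd68 was 1.64 to 3.75 CPM in A0 and 2.43 to 4.42 CPM in A1.

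Of 19293 genes tested, 6496 (33.7%) differed between A1 and A0, of which 3084 (16%) were higher and 3412 (17.7%) lower in A1, by the quasi-likelihood test of edgeR at an adjusted p of 0.05 (Benjamini-Hochberg over all genes tested). All adjusted p-values of this kind below come from edgeR, two-sided. Errors after ± are standard errors back-calculated from the test, as the size of the log2 fold change divided by the square root of its F statistic. For genes with few counts in a line they can be smaller than the counting error, as for Procr, with 11 counts over the A0 cultures. A change of at least 2-fold was found for 1818 of these genes, 816 of them higher and 1002 lower. The cultures of the lines did not overlap for 7718 genes (40%). The median log2 fold change over all genes tested was -0.002.

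Each A0 set was then compared with A1 in a fit of 3 groups. The errors and p-values of that fit rest on the spread within each A0 set and within A1. They leave out the difference between the A0 sets. A1 differed from A0 cultures 1 and 2 in 7729 genes (40.1%) and from cultures 3 and 4 in 6885 genes (35.7%). A change was taken to hold against both sets where both comparisons passed the threshold in the same direction, which was so for 5270 genes (27.3%), 2499 (13%) higher and 2771 (14.4%) lower. Both comparisons share the A1 cultures, so they are not independent of each other. Of the 6496 genes that differed between the lines, 5262 held against both sets, 725 passed against cultures 1 and 2 alone and 440 against cultures 3 and 4 alone. Among the 5270 genes, the median size of the log2 fold change was 0.67 against cultures 1 and 2 and 0.56 against cultures 3 and 4. At least 2-fold against each set were 1179 genes, 499 higher and 680 lower. The A0 sets themselves differed in 2568 genes (13.3%), 1392 (7.22%) higher and 1176 (6.1%) lower in cultures 3 and 4.

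Of the 10 largest rises among genes that held against both sets, with at least 5 CPM on average and cultures that do not overlap, 9 are described here, all of genes with at most 2.21 CPM in any A0 culture. They include the receptors Procr and Calcrl, the secreted Adm, Col3a1 and Angpt4, and the transcription factor Grhl2. Procr, the endothelial protein C receptor, had 0.192, 0.178, 0.326 and 0.234 CPM in A0 cultures 1 to 4 and 25.04, 22.9 and 23.02 CPM in A1 cultures 1 to 3 (log2 fold change 6.58 ± 0.20, adjusted p = 1.5e-10). Calcrl, a receptor chain for adrenomedullin and related peptides, had 0.0961, 0.178, 0.0816 and 0.312 CPM in A0 and 13.6, 11.9 and 12.1 CPM in A1 (log2 fold change 6.10 ± 0.28, adjusted p = 3.9e-09). Adm, which encodes adrenomedullin, had 0.384, 0.444, 1.22 and 1.48 CPM in A0 and 14.9, 16.4 and 13.6 CPM in A1 (log2 fold change 4.02 ± 0.28, adjusted p = 1.6e-07). Calcrl and Adm were both higher in all A1 cultures, as the rule that named them asks, and whether they act together was not tested. Adm differed between the A0 sets as well, by 1.68 ± 0.46 (adjusted p = 0.017).

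Col3a1, a fibrillar collagen chain, had 0.0961, 0.533, 0.163 and 0.234 CPM in A0 and 9.13, 14.5 and 13.3 CPM in A1 (log2 fold change 5.54 ± 0.32). Clcn5, a chloride and proton exchanger of endosomes, had 2.21, 2.04, 1.305 and 1.71 CPM in A0 and 77.5, 75.96 and 72.6 CPM in A1 (log2 fold change 5.38 ± 0.13). No A0 culture reached the lowest A1 culture for either gene, as the rule that named the genes asks. Lat, an adaptor protein of T cell receptor signalling, had 2.11, 1.51, 1.79 and 1.17 CPM in A0 and 25.5, 29.01 and 32.7 CPM in A1 (log2 fold change 4.15 ± 0.17). Grhl2, an epithelial transcription factor, had 0.480, 1.69, 1.06 and 1.71 CPM in A0 and 20.6, 19.3 and 16.5 CPM in A1 (log2 fold change 3.89 ± 0.24). The remaining rises were of Angpt4, an angiopoietin ligand (log2 fold change 3.64), and Cdc42ep2, an effector of the GTPase CDC42 (3.20). The adjusted p-values of Col3a1, Clcn5, Lat, Grhl2, Angpt4 and Cdc42ep2 were 3.0e-08, 1.1e-11, 2.0e-09, 5.3e-08, 2.6e-08 and 3.6e-07. On a scale over all libraries, CHO-S also had reads of Lat (52.7 to 73.3 CPM) at stationary phase, and the levels of Procr (0 to 0.0733 CPM) and Calcrl (no count in any culture) were at or near 0 there. Stationary CHO-S culture 1 had 1038026 counts on genes, against 14290792 and 7516854 in cultures 2 and 3, which limits its low levels. Among genes without a symbol, the largest rise was of LOC107979446, with 0.480, 0.621, 0.652 and 0.624 CPM in A0 and 13.3, 13.8 and 12.9 CPM in A1.

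The 3 largest falls were of Stmn4, Farp1 and Dgki, which had 3 counts or fewer over the A1 cultures. Stmn4, a neuronal stathmin that binds tubulin, had 12.5, 13.5, 19.5 and 15.2 CPM in A0 and 0, 0 and 0.0869 CPM in A1, which is 716 counts in A0 and 1 in A1. The ratio of A0 to A1 was 469.6 (95% interval 84.03 to 18576). Farp1, which links the membrane to the actin cytoskeleton, had 14.7, 14.1, 35.9 and 38.5 CPM in A0 and 0.147, 0.0808 and 0.0869 CPM in A1, with 1246 against 3 counts and a ratio of 272 (95% interval 93.01 to 1323). These exact intervals cover counting error only, not the spread between cultures. Dgki, a diacylglycerol kinase, had 557 counts over the A0 cultures and 2 over the A1 cultures, a ratio of 183 (95% interval 50.3 to 1512). All A1 cultures lay below all A0 cultures for the 3 genes, as the rule that named them asks. The adjusted p was 1.2e-08 for Stmn4, 1.2e-06 for Farp1 and 3.1e-08 for Dgki. Among genes without a symbol, LOC103160386 had 21.8, 20.7, 22.7 and 21.6 CPM in the A0 cultures and 1 count over the A1 cultures, a ratio of 666 (95% interval 119 to 26323).

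The other 6 large falls described here included the secreted proteases Mmp12 and Mmp10 and the synaptic gene Shank2. Mmp12, macrophage metalloelastase, had 462, 482, 270.2 and 199 CPM in A0 and 7.07, 5.01 and 8.60 CPM in A1 (log2 fold change -5.69 ± 0.33, adjusted p = 3.6e-08). Mmp10, stromelysin-2, had 38.7, 47.1, 38.7 and 24.3 CPM in A0 and 2.95, 1.70 and 1.56 CPM in A1 (log2 fold change -4.25 ± 0.26, adjusted p = 6.0e-08). Mmp12 was lower in A0 cultures 3 and 4 than in cultures 1 and 2 (adjusted p = 2.6e-06), yet the A1 cultures lay far below either set. Shank2 (log2 fold change -5.28), which encodes a postsynaptic scaffold, fell together with Camk4 (-4.02), a calcium-dependent kinase, and Drc7 (-4.63), a subunit of the dynein regulatory complex of cilia. Psma8, a testis form of a proteasome core subunit, had 20.3, 21.1, 31.3 and 31.02 CPM in A0 and 1.03, 1.05 and 1.22 CPM in A1 (log2 fold change -4.54 ± 0.25). The adjusted p-values of Shank2, Camk4, Drc7 and Psma8 were 2.9e-07, 8.6e-07, 5.1e-06 and 1.8e-08.

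**Figure D1:**
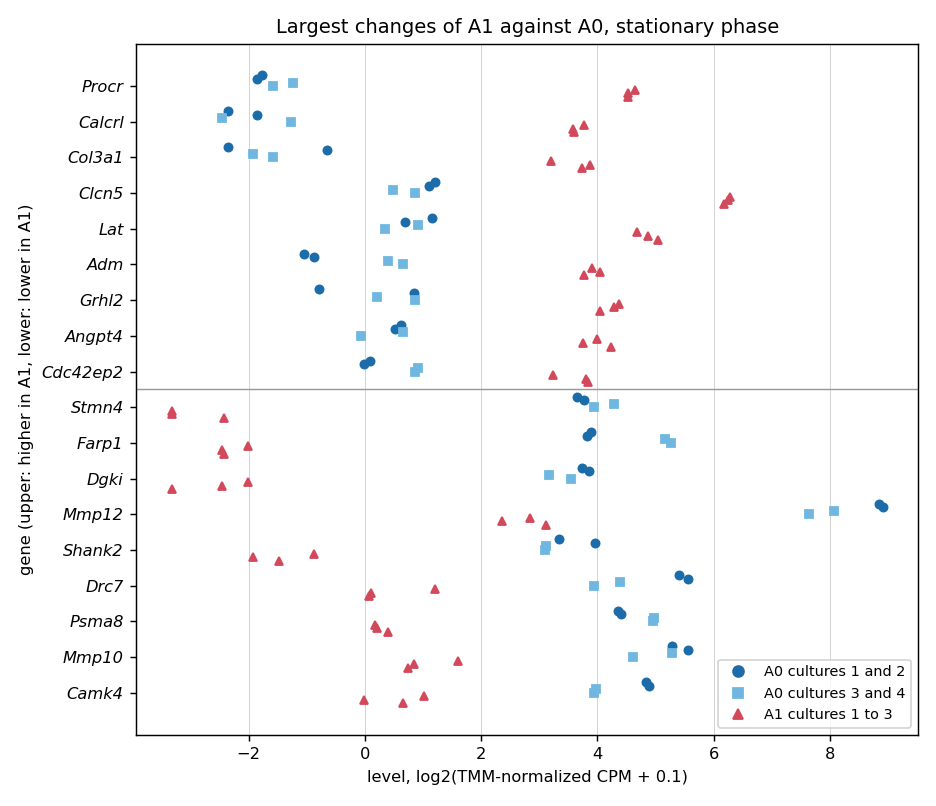
Level of 9 of the 10 genes with the largest rises (upper) and 9 of the 10 with the largest falls (lower) in each stationary culture, as log2(TMM-normalized CPM + 0.1), with A0 cultures 1 and 2, A0 cultures 3 and 4 and the 3 A1 cultures marked apart. The A1 cultures of each gene lie apart from all 4 A0 cultures, as the rule that named the genes asks, and the A0 sets also differ from each other past the threshold for Adm, Farp1, Mmp12, Shank2, Drc7, Psma8 and Camk4.

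The same 18 genes were read in exponential phase, in a fit of 4 groups (20953 genes tested, of which 26.6% differed between A1 and A0 at exponential phase and 8.94% in the difference between phases). All 18 had the same direction at exponential phase and passed the threshold there. Of these, Dgki had no count in A1 at exponential phase, and Stmn4 had at most 1 count in an A1 culture. Other genes named from the lists below were not part of this reading, and some had the opposite direction at exponential phase. The change of A1 against A0 differed between phases for 5 of the 18. The 18 were chosen by their change at stationary phase, a choice that favours larger changes there. The change was larger at stationary phase for Clcn5 (difference 1.90 ± 0.18, adjusted p = 5.8e-07), Lat (2.63 ± 0.46, adjusted p = 8.6e-04), Adm (2.04 ± 0.34, adjusted p = 5.8e-04) and Cdc42ep2 (2.30 ± 0.29, adjusted p = 3.8e-05). Shank2 fell by more at stationary phase (difference -3.19 ± 0.60, adjusted p = 0.0016). With culture number as a block over both phases, Angpt4, Drc7 and Mmp10 passed the threshold as well (adjusted p = 0.046, 0.015 and 0.0021), and Mmp10 also did without A0 culture 4 (0.0082) and with the first exponential libraries alone (0.028). On the scale of all libraries, which differs from that of the 7 stationary libraries, Adm stood at 3.50 to 5.25 CPM in exponential A0 cultures and at 0.372 to 1.42 CPM in stationary A0 cultures, and at 14 to 18.9 CPM and 12.98 to 15.96 CPM in A1. Its A1 levels overlapped between phases while its A0 levels did not. On the same scale Clcn5 had 7.22 to 8.69 CPM in exponential and 1.25 to 2.14 CPM in stationary A0 cultures, against 83.2 to 93.6 CPM and 69.6 to 74.8 CPM in A1, and neither line overlapped between phases.

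**Figure D2:**
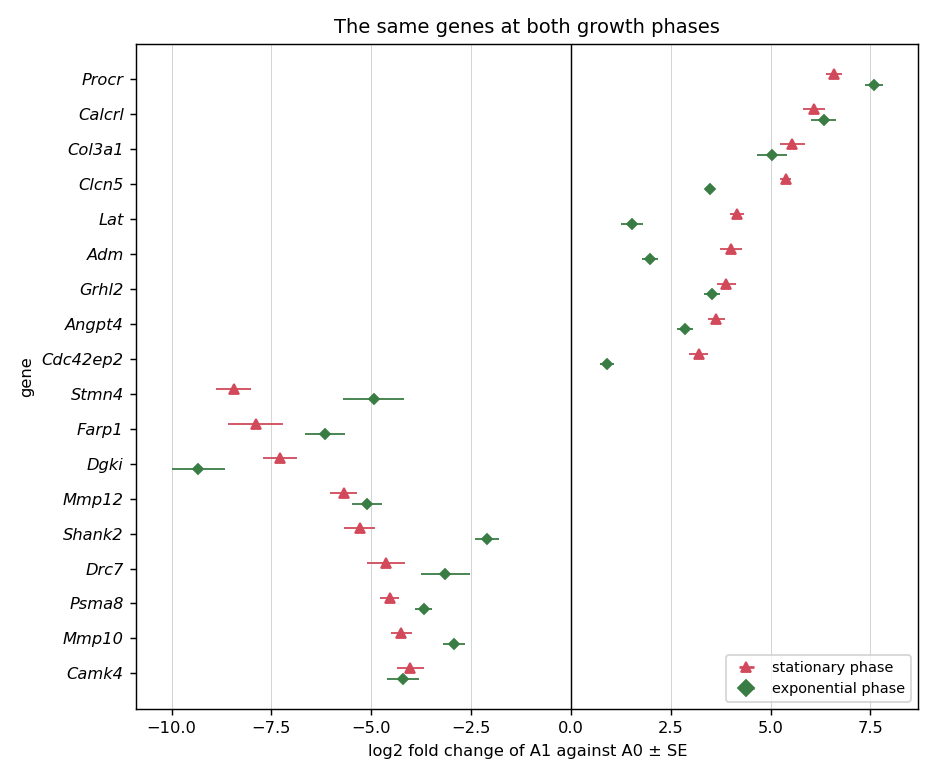
Log2 fold change of A1 against A0 with its standard error for the 18 genes, at stationary phase (fit of the 7 stationary cultures) and at exponential phase (fit of 4 groups). The fitted values of Stmn4, Farp1 and Dgki rest on an A1 group with 3 counts or fewer at stationary phase. At exponential phase Dgki had no count in A1, and Stmn4 had at most 1 count in an A1 culture. Every gene has the same direction at both phases.

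For functions, 38 lists with 1004 distinct genes tested were read by their counts and medians, with no test of a list, beside the share over all genes (33.7% called, 27.3% holding against both sets). Of the 19293 genes tested, 10620 reached 5 CPM on average, while most members of nearly every list did. The share called among genes of that level is not given here, so a list share above 33.7% is not read as an excess. In each list the member with the largest rise and the member with the largest fall that hold against both sets were named by rule. Further members are named as examples, chosen after their values were seen. Counts were also read under other scalings, tools, filters and sample sets and with each culture left out. Where a count moved by over 1.5 times, or library totals moved the split of rises and falls, the value is given beside it, and for counts against both sets the lowest and highest over these alternatives stand in brackets.

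Most replication and mitosis genes were higher in A1, and most were higher in A0 cultures 3 and 4 than in cultures 1 and 2. Of 42 DNA replication genes, 24 rose and 2 fell (Gins3, at -0.34, and Rfc1, at -0.27), and 20 rises and 2 falls (0 to 2) held against both sets. Neither fall passed the threshold without A1 culture 2 or without A1 culture 3, and 1 did by library totals. The median log2 fold change was 0.47, and it was 0.75 against A0 cultures 1 and 2 and 0.22 against cultures 3 and 4. Of 37 mitosis genes, 27 rose and 10 did not pass the threshold, and 23 rises held against both sets, with medians of 0.92 and 0.26 against the sets. Between the A0 sets, 29 of the replication genes and 32 of the mitosis genes were higher in cultures 3 and 4. In these bulk samples, fewer dividing cells and less RNA per dividing cell cannot be told apart.

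Dut, which removes dUTP and supplies dUMP, had 22.3, 24.9, 35.8 and 33.3 CPM in A0 and 60.1, 65.9 and 63.4 CPM in A1 (log2 fold change 1.12 ± 0.14, adjusted p = 2.5e-05). Cdc25c, the phosphatase that starts mitosis, had 5.57, 4.53, 5.38 and 5.85 CPM in A0 and 10.2, 10.7 and 11.3 CPM in A1 (log2 fold change 1.01 ± 0.15, adjusted p = 1.2e-04). Mki67, a marker of cycling cells, had 340.1, 349.6, 609.5 and 686 CPM in A0 and 1051, 945 and 931 CPM in A1 (log2 fold change 0.97 ± 0.19, adjusted p = 0.0014). For Dut and Mki67 the cultures ranked A0 1 and 2, then A0 3 and 4, then A1, with no overlap, while the A0 sets overlapped for Cdc25c.

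Most G1 regulators on the list were higher in A1. Of 19 tested, 11 rose and 2 fell, and all 11 rises and both falls held against both sets. Cdkn2c, the CDK4 and CDK6 inhibitor p18, had 20.2, 20.2, 36.6 and 33.05 CPM in A0 and 93.8, 137 and 172 CPM in A1 (log2 fold change 2.29 ± 0.21, adjusted p = 2.1e-06). The transcription factor genes E2f1 (1.37) and E2f2 (1.63), which drive entry into S phase, rose, as did the cyclin gene Ccnd1 (0.74). Cdkn1a, the inhibitor p21, had 108, 113, 106 and 100.5 CPM in A0 and 75.4, 74.9 and 81.04 CPM in A1 (log2 fold change -0.47 ± 0.07, adjusted p = 2.3e-04), and Rbl2, a pocket protein of resting cells, fell by 0.45 on the log2 scale. Both a kinase inhibitor and the factors that drive the cycle were thus among the rises.

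Of 22 p53 targets tested, 8 fell and 3 rose (Tp53inp1, Sesn1 and Zmat3), with 5 (3 to 6) falls and 3 (1 to 3) rises against both sets. The median log2 fold change was -0.47 against A0 cultures 1 and 2 and -0.08 against cultures 3 and 4. Between the A0 sets, 7 of the 22 were lower and 1 was higher in cultures 3 and 4. LOC103159266, which the RefSeq table names GADD45A, a stress gene induced by DNA damage, had 483, 524, 375 and 368 CPM in A0 and 163, 123 and 147 CPM in A1 (log2 fold change -1.60 ± 0.13, adjusted p = 7.1e-07). At exponential phase, in the fit of 4 groups, LOC103159266 was instead higher in A1 (log2 fold change 0.36 ± 0.12, adjusted p = 0.034). Tp53inp1, which promotes cell death and autophagy, had 11.2, 19.4, 11.3 and 7.48 CPM in A0 and 43.2, 37.2 and 39.3 CPM in A1 (log2 fold change 1.69 ± 0.21, adjusted p = 3.1e-05). The count of falls was 4 without A1 culture 2 or without A1 culture 3 and 5, beside 4 rises, when scaled by library totals.

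**Figure D3:**
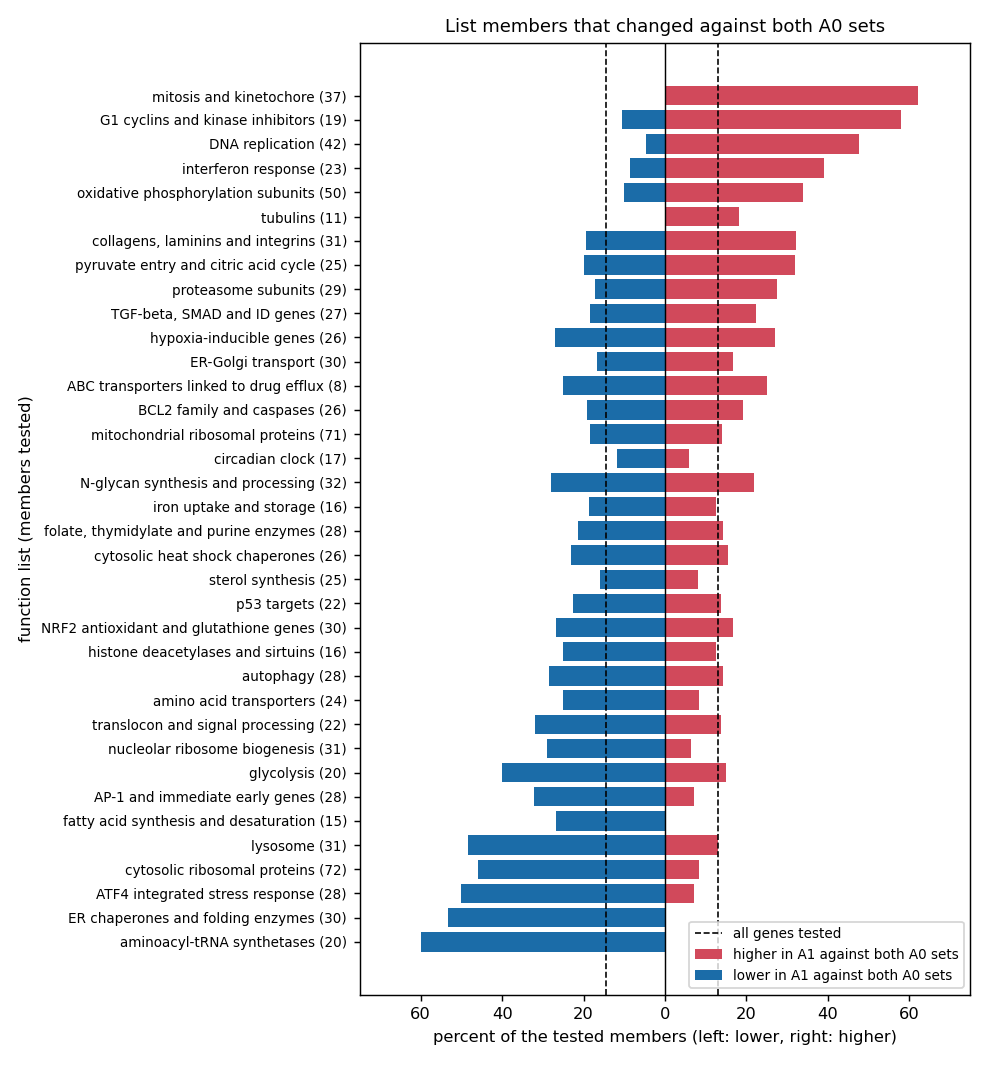
Percent of the tested members of each function list that changed against both A0 sets, lower to the left and higher to the right, with the number of members tested in brackets. Mitosis, G1 and DNA replication genes reach farthest to the right, and aminoacyl-tRNA synthetases, ER chaperones, ATF4 targets, lysosome and cytosolic ribosomal protein genes are among those that reach farthest to the left.

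Most of the ER folding genes that passed the threshold were lower in A1. Of 30 ER chaperones and folding enzymes, 16 fell, all of which held against both sets, and 1 rose (Pdia3, log2 fold change 0.17 ± 0.06, adjusted p = 0.047), which did not hold against both. No member rose with no filter, with both phases in 1 fit, without A0 culture 3 or without any single A1 culture, and 2 rose by limma or without A0 culture 1. The median log2 fold change was -0.25, and it was -0.32 against A0 cultures 1 and 2 and -0.21 against cultures 3 and 4. Between the A0 sets, 14 of the 30 genes were lower and 0 higher in cultures 3 and 4, beside 6.1% and 7.22% of all genes. Hspa5, which encodes BiP, the main Hsp70 of the ER, had 20244, 20849, 13677 and 11859 CPM in A0 and 7651, 7797 and 8945 CPM in A1 (log2 fold change -1.03 ± 0.16, adjusted p = 2.0e-04). The A1 cultures lay below all A0 cultures, and A0 cultures 3 and 4 lay between A1 and A0 cultures 1 and 2, so that the log2 fold change was -1.34 ± 0.07 against cultures 1 and 2 and -0.65 ± 0.07 against cultures 3 and 4. Summed over the list, the level was 46610.0, 47765, 35279 and 32929 CPM in A0 cultures 1 to 4 and 26618, 27509 and 29732 CPM in A1 cultures 1 to 3. At exponential phase, in the fit of 4 groups, Hspa5 was instead higher in A1 (log2 fold change 0.70 ± 0.14, adjusted p = 6.3e-04).

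Sensors of the unfolded protein response fell with the chaperones. Atf6, the sensor that is cleaved in the Golgi, had 231, 241, 237 and 227 CPM in A0 and 134, 127 and 141 CPM in A1 (log2 fold change -0.81 ± 0.07, adjusted p = 1.1e-06). Ern1, which encodes the sensor IRE1, had 136, 147, 121 and 121 CPM in A0 and 79.7, 73.5 and 71.7 CPM in A1 (log2 fold change -0.81 ± 0.09, adjusted p = 9.5e-06). Eif2ak3, which encodes PERK, fell by less (log2 fold change -0.28 ± 0.08, adjusted p = 0.018). Dnajc3, a BiP cochaperone, had 400.1, 346, 314 and 327 CPM in A0 and 179, 193 and 188 CPM in A1 (log2 fold change -0.89 ± 0.09, adjusted p = 3.0e-06). No A0 culture overlapped an A1 culture for Atf6, Ern1 and Dnajc3. Xbp1, the target of IRE1, did not pass the threshold (log2 fold change -0.25 ± 0.10, adjusted p = 0.078) and differed from A0 cultures 1 and 2 alone.

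The steps before and after folding had changes in both directions. Of 22 translocon and signal processing genes, 8 fell and 3 rose (Tram1, Sec61b and Sec62), with 7 and 3 (1 to 5) against both sets. Library totals gave 6 rises and 6 falls, 5 rose without A0 culture 1, and 5 fell without A1 culture 1. Tram1, a translocon helper of chain insertion, had 144, 156, 138 and 146 CPM in A0 and 234, 245 and 241 CPM in A1 (log2 fold change 0.72 ± 0.07, adjusted p = 2.5e-06). Ssr4, a subunit of the translocon-associated protein complex, had 255, 223, 207 and 205 CPM in A0 and 112, 138 and 141 CPM in A1 (log2 fold change -0.76 ± 0.10, adjusted p = 4.1e-05). Of 32 N-glycan genes, 8 rose and 10 fell, with 7 (2 to 8) and 9 against both sets. The count of rises was 2 without A1 culture 2, and library totals gave 9 rises and 7 falls. St3gal3, a sialyltransferase, had 27.3, 22.6, 28.7 and 28.6 CPM in A0 and 36.1, 41.05 and 42.6 CPM in A1 (log2 fold change 0.58 ± 0.11, adjusted p = 6.9e-04), and Mogs, the glucosidase that starts glycan trimming, had 81.8, 72.8, 91.1 and 86.1 CPM in A0 and 45.8, 54.7 and 51.6 CPM in A1 (log2 fold change -0.70 ± 0.09, adjusted p = 5.8e-05). No culture of A0 overlapped one of A1 for these 4 genes.

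Of 30 ER to Golgi transport genes, 9 rose and 6 fell, with 5 (3 to 9) and 5 against both sets. The count of rises was 4 without A1 culture 2, 5 without A1 culture 3 and 5 with both phases in 1 fit. Copg1, a coat subunit of COPI vesicles, had 209.7, 224, 201 and 206 CPM in A0 and 299, 306 and 283 CPM in A1 (log2 fold change 0.50 ± 0.07, adjusted p = 6.4e-05). Mcfd2, which carries glycoproteins from the ER together with LMAN1, had 139, 139.8, 118 and 125 CPM in A0 and 90.2, 87.4 and 82.3 CPM in A1 (log2 fold change -0.59 ± 0.08, adjusted p = 7.5e-05). Of 29 proteasome subunits, 8 rose and 4 fell (Psmd7, Psmd6, Psmd2 and Psmd12), while in the fit of 3 groups 8 rises (4 to 9) and 5 falls (2 to 5) held against both sets. The count of rises was 3 without A1 culture 2 and 4 without A1 culture 3, that of falls was 2 without A1 culture 1, and library totals gave 10 rises and 3 falls. Psmd11 rose (log2 fold change 0.71 ± 0.07, adjusted p = 3.5e-06) and Psmd7 fell (log2 fold change -0.66 ± 0.08, adjusted p = 4.0e-05), both of them subunits of the regulatory lid.

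Most ATF4 targets and most of the enzymes that load tRNAs were lower in A1. Of 28 ATF4 and integrated stress response genes, 16 fell and 2 rose (Ddit4 and Phgdh), with 14 falls and both rises (1 to 3) against both sets. The median was -0.51 against all A0 cultures, -0.40 against cultures 1 and 2 and -0.37 against cultures 3 and 4. Gpt2, a mitochondrial alanine transaminase, had 100.4, 97.02, 109 and 114 CPM in A0 and 59.8, 56.7 and 59.8 CPM in A1 (log2 fold change -0.84 ± 0.08, adjusted p = 3.3e-06). Asns, asparagine synthetase, had 232, 216, 187 and 189 CPM in A0 and 137, 134 and 135 CPM in A1 (log2 fold change -0.60 ± 0.08, adjusted p = 7.6e-05). Ddit3, which encodes the stress factor CHOP, had 387, 389, 323 and 251 CPM in A0 and 230.4, 202 and 218 CPM in A1 (log2 fold change -0.64 ± 0.12, adjusted p = 0.0012). All A1 cultures lay below all A0 cultures for these genes. Ddit4, an inhibitor of mTORC1 signalling, went the other way with 14.9, 13.1, 23.8 and 25.6 CPM in A0 and 32.7, 32.6 and 33.7 CPM in A1 (log2 fold change 0.76 ± 0.19, adjusted p = 0.0055).

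Of 20 cytosolic aminoacyl-tRNA synthetases, 12 fell and 8 did not pass the threshold, and all 12 falls held against both sets (median -0.28). Iars, isoleucyl-tRNA synthetase, had 358, 378, 401 and 403 CPM in A0 and 248, 242 and 233 CPM in A1 (log2 fold change -0.68 ± 0.07, adjusted p = 5.6e-06), with no overlap. Of 24 amino acid transporters, 8 fell and 2 rose (Slc1a3 and Slc6a6), with 6 and 2 against both sets, and 5 fell without A1 culture 3. Slc38a4, a sodium-coupled neutral amino acid transporter, had 13.2, 15.5, 8.64 and 10.4 CPM in A0 and 6.48, 3.56 and 4.52 CPM in A1 (log2 fold change -1.35 ± 0.23, adjusted p = 4.6e-04). Slc1a3, a glutamate transporter, had 12.8, 13.5, 12.8 and 16.1 CPM in A0 and 25.5, 28.5 and 30.2 CPM in A1 (log2 fold change 1.03 ± 0.12, adjusted p = 1.4e-05).

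Cytosolic ribosomal protein genes were mostly lower. Of 72 tested, 37 fell and 6 rose, with 33 and 6 (2 to 9) against both sets and a median of -0.20. With both phases in 1 fit 24 fell. By library totals 10 rose and 28 fell, and 3 rose without A1 culture 2 or without A1 culture 3. HTSeq leaves out reads that align to several places, so genes with near-identical copies such as these are uncertain. Rpl27, a protein of the large subunit, had 454, 431, 415 and 428 CPM in A0 and 268, 272 and 264 CPM in A1 (log2 fold change -0.69 ± 0.06, adjusted p = 2.4e-06). Rps27a, which encodes ubiquitin fused to a small subunit protein, had 504, 445, 412 and 421 CPM in A0 and 816, 843 and 840.2 CPM in A1 (log2 fold change 0.90 ± 0.07, adjusted p = 7.9e-07). Of 31 nucleolar ribosome biogenesis genes, 10 fell and 3 rose (Nol6, Nop56 and Fbl), with 9 (5 to 9) and 2 (1 to 4) against both sets. By library totals 6 fell and 5 rose, 6 fell with both phases in 1 fit or without A1 culture 1, and 1 rose without A1 culture 2. Gnl3, the nucleolar protein nucleostemin, fell (log2 fold change -0.60 ± 0.07, adjusted p = 1.8e-05) and Nol6, a processing factor of the small subunit, rose (log2 fold change 0.67 ± 0.11, adjusted p = 3.2e-04).

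Most lysosome genes were lower in A1. Of 31 lysosome genes, 18 fell and 5 rose (Ctsk, Tfeb, Ctsa, Cd63 and Lipa), with 15 falls and 4 (2 to 5) rises against both sets, and 3 rose without A1 culture 3. The median was -0.29, and it was -0.34 against A0 cultures 1 and 2 and -0.27 against cultures 3 and 4. Between the A0 sets, 15 of the 31 genes were lower and 1 was higher in cultures 3 and 4, beside 6.1% and 7.22% of all genes. Gusb, beta-glucuronidase, had 352, 309.6, 279 and 288 CPM in A0 and 135, 139 and 146 CPM in A1 (log2 fold change -1.13 ± 0.09, adjusted p = 3.6e-07). Gla, alpha-galactosidase A, had 98.8, 95.1, 75.03 and 69.4 CPM in A0 and 37.3, 39.3 and 43.2 CPM in A1 (log2 fold change -1.08 ± 0.12, adjusted p = 1.5e-05). Asah1, acid ceramidase, had 511, 462, 395 and 403 CPM in A0 and 202, 205 and 222 CPM in A1 (log2 fold change -1.08 ± 0.09, adjusted p = 1.1e-06). Each A1 culture lay below each A0 culture for these hydrolases. Tfeb, a transcription factor that drives lysosome genes, had 3.36, 3.55, 6.12 and 5.30 CPM in A0 and 7.95, 7.92 and 9.73 CPM in A1 (log2 fold change 0.89 ± 0.21, adjusted p = 0.0042), the direction opposite to theirs. Cd68, a lysosomal membrane protein that is also a macrophage marker, had 60.2, 68.97, 25.2 and 17.6 CPM in A0 and 12.4, 8.48 and 9.90 CPM in A1 (log2 fold change -2.09 ± 0.40, adjusted p = 9.9e-04), and was lower in A0 cultures 3 and 4 than in 1 and 2 (log2 fold change -1.60 ± 0.14).

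Of 28 autophagy genes, 10 fell and 4 rose (Map1lc3a, Bnip3, Atg4b and Gabarap), with 8 and 4 (1 to 4) against both sets. Library totals gave 6 rises and 9 falls, and 2 rose without A1 culture 3. Nbr1, a cargo receptor of autophagy, had 305, 289, 260.3 and 249 CPM in A0 and 162, 155 and 152 CPM in A1 (log2 fold change -0.82 ± 0.08, adjusted p = 4.0e-06). The paralogs that encode the autophagosome protein LC3 went in opposite directions, with Map1lc3b at -0.78 (adjusted p = 3.5e-05) and Map1lc3a at 0.61 (adjusted p = 0.0041).

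Heme oxygenase and thioredoxin reductase were lower in A1, and the peroxiredoxins Prdx2 and Prdx5 higher. Of 30 NRF2, antioxidant and glutathione genes, 8 fell and 5 rose, all against both sets (2 to 5 of the rises over the alternatives), and 3 rose without A1 culture 2 or without A1 culture 3. Hmox1, heme oxygenase 1, had 4538, 4092, 2702 and 2446 CPM in A0 and 1098, 1214 and 1227 CPM in A1 (log2 fold change -1.55 ± 0.17, adjusted p = 1.4e-05), with A0 cultures 3 and 4 between the others. Txnrd1, thioredoxin reductase, had 1985, 2062, 1824 and 1694 CPM in A0 and 1080.1, 939 and 1000.2 CPM in A1 (log2 fold change -0.91 ± 0.08, adjusted p = 1.4e-06). Both are classic NRF2 targets, and Osgin1, Gsr and Srxn1 were among those that fell with them. The 5 that rose were the peroxidases Prdx2 (log2 fold change 0.56 ± 0.08, adjusted p = 8.4e-05), Prdx5 and Gpx4, superoxide dismutase Sod1 and LOC100758292, which the RefSeq table names TXN, thioredoxin. Of 16 iron genes, 4 fell (Ncoa4, Fth1, Pcbp1 and Slc39a14) and 2 rose (Blvra and Aco1), with 3 and 2 (1 to 2) against both sets. By library totals 2 fell and 2 rose, and without A1 culture 1 2 fell and 1 rose. Ncoa4, the receptor that sends ferritin to the lysosome, fell (log2 fold change -0.44 ± 0.07, adjusted p = 1.6e-04) and Blvra, biliverdin reductase, which acts after heme oxygenase, rose (log2 fold change 0.56 ± 0.11, adjusted p = 9.7e-04).

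**Figure D4:**
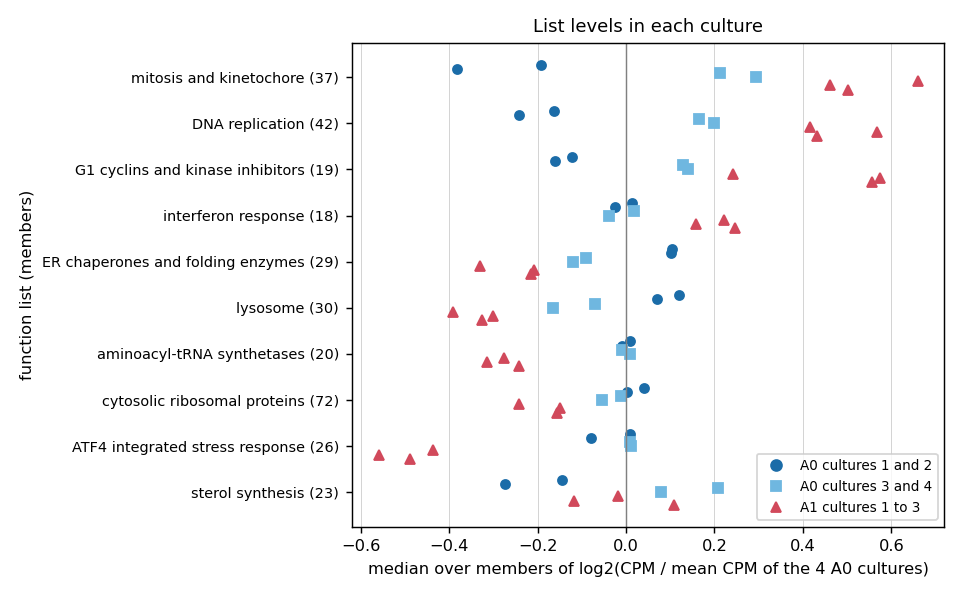
Median over the members of a list of log2(CPM / mean CPM of the 4 A0 cultures), shown for each of the 7 stationary cultures, with the number of members with at least 5 CPM in brackets. For the cell cycle lists A0 cultures 3 and 4 lie between A0 cultures 1 and 2 and A1. The same order is seen for ER chaperones, lysosome genes and, by a small margin between the A0 sets, cytosolic ribosomal proteins.

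More glycolysis genes fell than rose, and more genes of the citric acid cycle rose than fell. Of 20 glycolysis genes, 9 fell and 4 rose (Slc16a3, Gpi, Pgam1 and Pfkl), with 8 and 3 against both sets. Library totals gave 5 rises and 7 falls, and 2 rose without A1 culture 1 or without A1 culture 2. Pfkfb4, which sets the level of the glycolytic activator fructose 2,6-bisphosphate, had 23.2, 20.3, 13.7 and 12.8 CPM in A0 and 8.99, 7.35 and 8.17 CPM in A1 (log2 fold change -1.10 ± 0.20, adjusted p = 7.8e-04). Gpi, glucose-6-phosphate isomerase, had 82.2, 85.7, 80.7 and 80.7 CPM in A0 and 141, 150.0 and 142 CPM in A1 (log2 fold change 0.81 ± 0.07, adjusted p = 9.1e-07). Of 25 genes of pyruvate entry and the citric acid cycle, 9 rose and 5 fell (Mdh2, Pdk1, Suclg2, Suclg1 and Pdha1), with 8 and 5 against both sets. Pdhb, a subunit of pyruvate dehydrogenase, had 43.3, 41.9, 42.7 and 43.96 CPM in A0 and 105, 119.9 and 119 CPM in A1 (log2 fold change 1.42 ± 0.08, adjusted p = 1.8e-08), and Mpc1, of the mitochondrial pyruvate carrier, rose as well (log2 fold change 1.05 ± 0.13, adjusted p = 3.7e-05). Mdh2, malate dehydrogenase, had 225, 203, 214 and 209 CPM in A0 and 145, 141 and 139 CPM in A1 (log2 fold change -0.59 ± 0.07, adjusted p = 1.6e-05). The other subunit of the same dehydrogenase, Pdha1, fell (log2 fold change -0.24 ± 0.07, adjusted p = 0.012).

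Of 50 subunits of oxidative phosphorylation, 17 rose and 6 fell, with 17 and 5 (2 to 6) against both sets and a median of 0.07. The count of falls was 3 by library totals, beside 19 rises, and 3 with both phases in 1 fit, and without A1 culture 2 or A1 culture 3. Atp5g1, of the ring of ATP synthase, had 98.5, 86.3, 84.5 and 76.5 CPM in A0 and 115, 129 and 134 CPM in A1 (log2 fold change 0.54 ± 0.09, adjusted p = 3.3e-04), and Ndufb4, of complex I, had 129, 132, 126 and 134 CPM in A0 and 90.7, 106 and 111 CPM in A1 (log2 fold change -0.35 ± 0.08, adjusted p = 0.0034). Mitochondrial ribosomal proteins split, with 11 higher and 19 lower of 71, 10 and 13 of them against both sets. By library totals 18 rose and 14 fell, which turns the balance, and 12 fell without A1 culture 1. Mrpl45 rose (log2 fold change 0.76 ± 0.07, adjusted p = 3.8e-06) and Mrpl14 fell (log2 fold change -0.69 ± 0.13, adjusted p = 1.0e-03), both of the large mitochondrial subunit.

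Folate genes, the pathway that methotrexate blocks, changed in both directions. Of 28 folate, thymidylate and purine enzymes, 6 rose and 7 fell, with 4 and 6 against both sets, and 3 rose without A1 culture 2 or without A1 culture 3. Ggh, the hydrolase that removes glutamates from folates and methotrexate, had 7.59, 6.83, 12.97 and 12 CPM in A0 and 21.1, 29.5 and 28.3 CPM in A1 (log2 fold change 1.42 ± 0.20, adjusted p = 7.4e-05). Fpgs, the ligase that adds them, fell (log2 fold change -0.36 ± 0.10, adjusted p = 0.016). Mthfd2, a mitochondrial folate dehydrogenase, had 679, 602, 667 and 705 CPM in A0 and 399, 366 and 403 CPM in A1 (log2 fold change -0.77 ± 0.07, adjusted p = 2.8e-06). Of 8 ABC transporters linked to drug efflux, 2 rose (Abcc3 and Abcc1) and 2 fell (Abcc4 and Abcc5), all against both sets, with 1 of the falls without A0 culture 3. Abcc3 had 37.7, 48.6, 36.2 and 35.9 CPM in A0 and 77.3, 74.7 and 77.7 CPM in A1 (log2 fold change 0.95 ± 0.10, adjusted p = 9.4e-06) and Abcc4 had 240.3, 267, 301 and 296 CPM in A0 and 182, 169.9 and 156 CPM in A1 (log2 fold change -0.71 ± 0.09, adjusted p = 3.2e-05).

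Of 25 sterol synthesis genes, 3 rose, among them LOC100764834 and Dhcr7, and 4 fell, among them Msmo1, Scap and Srebf2, with 2 (1 to 3) and 4 against both sets, while 14 were higher in A0 cultures 3 and 4 than in cultures 1 and 2. The median was 0.16 against cultures 1 and 2 and -0.16 against cultures 3 and 4, and 7 fell without A0 culture 2. The count of rises was 1 without A1 culture 1 or without A1 culture 3 and 5 without A0 culture 3. LOC100764834, which the RefSeq table names SQLE, squalene monooxygenase, had 34.6, 35.2, 44.6 and 47.9 CPM in A0 and 68.8, 71.5 and 77.9 CPM in A1 (log2 fold change 0.84 ± 0.11, adjusted p = 5.7e-05). Msmo1, a methylsterol oxidase, had 277, 243, 333 and 306 CPM in A0 and 188, 162 and 205 CPM in A1 (log2 fold change -0.65 ± 0.11, adjusted p = 2.8e-04). Of 15 fatty acid genes, 4 fell (Slc25a1, Fasn, Acly and Acsl4), all against both sets (1 to 4), and 11 did not pass the threshold. Without A1 culture 2, 2 fell, and 1 rose with no filter or without A0 culture 2, 3 or 4. Slc25a1, the citrate carrier, fell (log2 fold change -0.42 ± 0.08, adjusted p = 0.0013).

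Spry2, Etv5 and 3 Dusp genes, which act in growth factor signalling, were lower in A1. Of 28 AP-1 and immediate early genes, 9 fell and 2 rose (Ctgf and Fosl2), all against both sets, and the median was -0.27. By library totals 5 rose and 9 fell, and 4 rose without A0 culture 4. Spry2, an inhibitor of ERK signalling that ERK induces, had 161, 177, 93.6 and 87.1 CPM in A0 and 33, 26.2 and 30.4 CPM in A1 (log2 fold change -2.13 ± 0.23, adjusted p = 8.1e-06). Etv5, a transcription factor downstream of ERK, fell (log2 fold change -1.56 ± 0.12, adjusted p = 4.6e-07), as did the ERK phosphatase genes Dusp4, Dusp5 and Dusp6. Ctgf, a matrix protein, had 1.83, 1.42, 4.57 and 4.05 CPM in A0 and 9.72, 9.54 and 8.95 CPM in A1 (log2 fold change 1.63 ± 0.29, adjusted p = 5.3e-04). In both Spry2 and Ctgf, A0 cultures 3 and 4 lay between A0 cultures 1 and 2 and the A1 cultures.

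Of 27 TGF-beta, SMAD and ID genes, 6 rose and 6 fell, with 6 (3 to 6) and 5 (3 to 5) against both sets. Tgfbr1, the type I receptor, had 334, 362, 209.7 and 208 CPM in A0 and 143, 116 and 119 CPM in A1 (log2 fold change -1.14 ± 0.18, adjusted p = 1.9e-04), while Fst, follistatin, which binds activins, had 4.52, 4.79, 2.94 and 2.73 CPM in A0 and 11.8, 10.2 and 7.90 CPM in A1 (log2 fold change 1.41 ± 0.22, adjusted p = 1.9e-04). Of 31 collagens, laminins and integrins, 10 rose and 7 fell, with 10 and 6 against both sets. Fn1, fibronectin, had 409, 454, 684 and 596 CPM in A0 and 1313, 1149.8 and 1404 CPM in A1 (log2 fold change 1.27 ± 0.14, adjusted p = 1.1e-05). Itga1, an integrin chain that binds collagen, had 27.6, 26.6, 20.6 and 18.1 CPM in A0 and 12.2, 8.48 and 9.47 CPM in A1 (log2 fold change -1.23 ± 0.17, adjusted p = 8.8e-05). Of the 7 that fell, 5 were integrin chains (Itga1, Itga6, Itga3, Itga5 and Itgb1), and the integrin chain Itgav rose (log2 fold change 1.06 ± 0.08, adjusted p = 2.4e-07).

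Of 23 interferon response genes, 9 rose and 2 fell (Mx1 and Ifi35), all against both sets (median 0.25). Usp18, a negative regulator of interferon signalling, had 3.07, 3.37, 2.77 and 2.57 CPM in A0 and 9.13, 9.78 and 9.90 CPM in A1 (log2 fold change 1.71 ± 0.16, adjusted p = 3.1e-06). Mx1, an antiviral GTPase, had 69.2, 72.9, 70.7 and 70.8 CPM in A0 and 41.8, 35.96 and 39.6 CPM in A1 (log2 fold change -0.86 ± 0.08, adjusted p = 2.6e-06). No A0 culture overlapped an A1 culture for Usp18 or Mx1, which moved in opposite directions.

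Of 26 BCL2 family and caspase genes, 6 rose and 7 fell, with 5 (2 to 5) and 5 against both sets, and 3 rose without A1 culture 2 and 2 without A1 culture 3. Bmf, a BH3-only protein that favours cell death, had 4.13, 6.12, 5.87 and 4.44 CPM in A0 and 13.4, 13.1 and 11.99 CPM in A1 (log2 fold change 1.31 ± 0.16, adjusted p = 2.9e-05), and Cflar, an inhibitor of caspase 8, had 97.2, 84.9, 93.4 and 88 CPM in A0 and 58.9, 41.5 and 49.8 CPM in A1 (log2 fold change -0.87 ± 0.11, adjusted p = 2.6e-05). Of 26 hypoxia-inducible genes, 7 rose and 9 fell, with 7 (4 to 7) and 7 against both sets. By library totals 7 rose and 5 fell, 4 rose without A1 culture 3, and 5 fell without A1 culture 2. Ero1a, the oxidase of ER disulfide bonds, fell (log2 fold change -0.58 ± 0.07, adjusted p = 4.1e-05) while Adm rose as given above.

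Of 26 cytosolic chaperones, 4 rose (Hspa8, Dnajb1, Hspa2 and Dnaja1) and 6 fell, all against both sets. Hspa8, the constitutive Hsp70, had 1080.5, 796, 1633 and 1846 CPM in A0 and 1859.5, 2788 and 2426 CPM in A1 (log2 fold change 0.82 ± 0.22, adjusted p = 0.0092), with A1 culture 1 barely above A0 culture 4. Cct7, of the TRiC chaperonin, fell (log2 fold change -0.60 ± 0.07, adjusted p = 1.1e-05). Of 16 histone deacetylases and sirtuins, 3 rose (Hdac7, Hdac1 and Sirt7) and 4 fell (Hdac9, Sirt4, Hdac4 and Sirt5), with 2 and 4 (1 to 4) against both sets, and with Hdac7 at 0.80 ± 0.11 and Hdac4 at -0.73 ± 0.09. Of 11 tubulin genes, 3 rose (Tubb, Tuba1b and Tubb6), 2 of them (1 to 4) against both sets, and 8 did not pass the threshold. By library totals, with both phases in 1 fit or without A0 culture 4, 5 rose, and 1 fell without A0 culture 2. These genes have near-identical copies and are uncertain for that reason. Tubb had 583, 529.6, 918 and 923 CPM in A0 and 1074, 1163 and 1230.2 CPM in A1 (log2 fold change 0.65 ± 0.16, adjusted p = 0.0062). Of 17 clock genes, 2 rose (Tef and Bhlhe41) and 3 fell (Nfil3, Cry1 and Clock), with 1 (1 to 2) and 2 against both sets, and 1 rose without A1 culture 2. The median of the clock genes was -0.32 against A0 cultures 1 and 2 and 0.09 against cultures 3 and 4. Between the A0 sets, 8 of the 17 were lower and 1 was higher in cultures 3 and 4. Tef, at 0.82 ± 0.13, and Nfil3, at -0.76 ± 0.09, encode an activator and a repressor of the same D-box elements. Of the CHO markers, S100a6, a calcium-binding protein, had 385, 298, 351 and 296 CPM in A0 and 689.7, 819.6 and 799 CPM in A1 (log2 fold change 1.21 ± 0.10, adjusted p = 5.5e-07), and Vim rose as well (log2 fold change 0.39 ± 0.07, adjusted p = 8.9e-04).

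**Figure D5:**
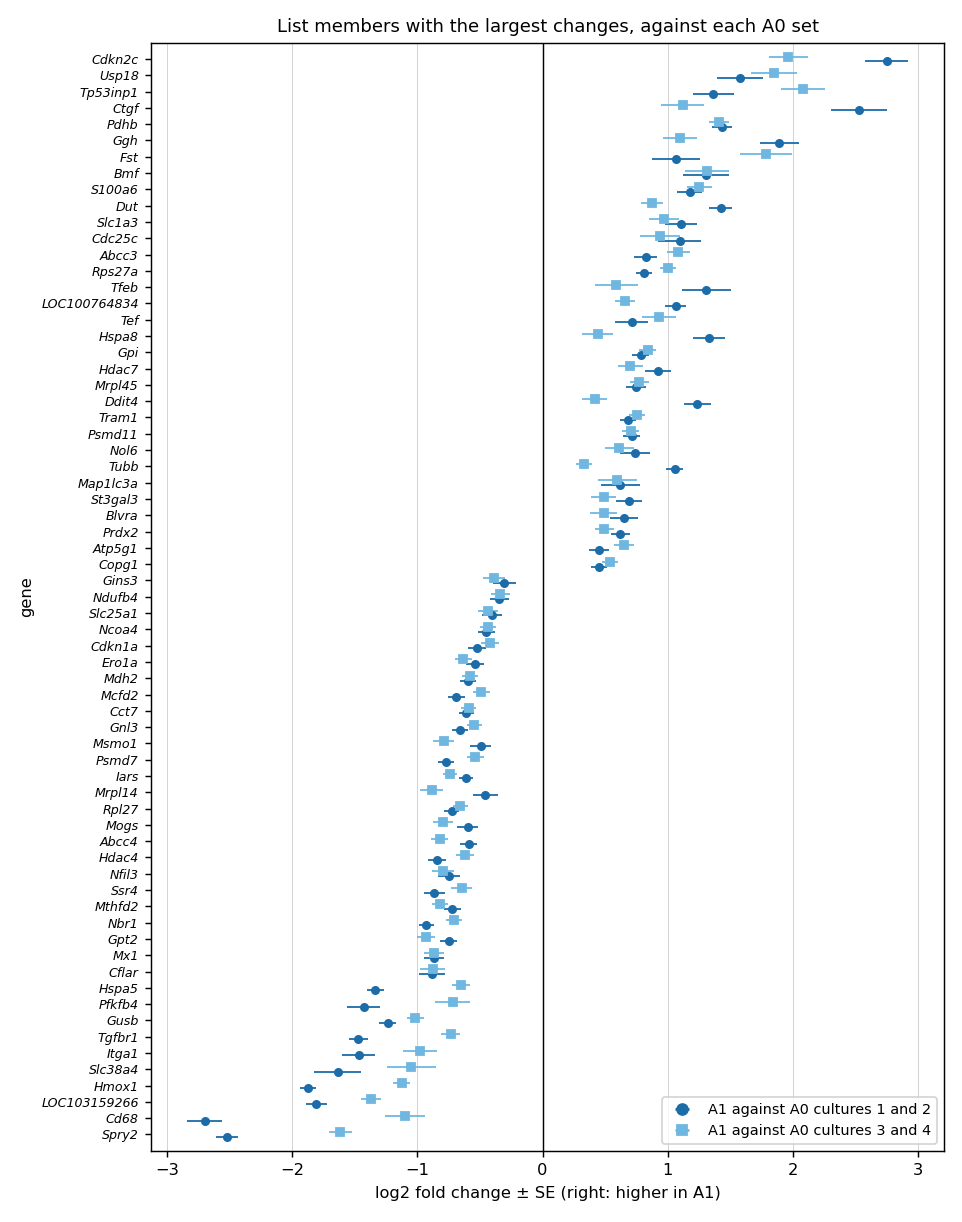
Log2 fold change of A1 with its standard error against A0 cultures 1 and 2 (circles) and against A0 cultures 3 and 4 (squares), for the list members with the largest changes that hold against both sets. Spry2, Cd68, Hspa5, Hmox1 and Ctgf lie farther from 0 against cultures 1 and 2, while Tp53inp1 and Fst lie farther from 0 against cultures 3 and 4.

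Changes that held against both sets could still differ in size. The A0 sets differed for 1070 of the 5270 genes, and in 880 of these the A1 cultures lay nearer to A0 cultures 3 and 4 and in 190 nearer to cultures 1 and 2. Of the genes that passed the threshold between the lines but against a single set, the A0 sets also differed for 197 of the 725 that passed against cultures 1 and 2 alone and for 81 of the 440 that passed against cultures 3 and 4 alone, so for most of them a difference between the sets was not shown. A further 8 genes held against both sets without passing between the lines.

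In 57 genes A1 differed from the sets in opposite directions. The 5 named here, the largest by the smaller of their changes, did not pass the threshold against all 4 A0 cultures together (adjusted p = 0.34 to 0.94). Their A1 means lay between the means of the sets, which follows from the opposite directions. Ranbp3l, a cofactor of nuclear export, had 9.99, 8.88, 49.7 and 42.6 CPM in A0 and 13.8, 21.5 and 18.2 CPM in A1, so that A1 was higher than cultures 1 and 2 (log2 fold change 0.96 ± 0.16) and lower than cultures 3 and 4 (-1.33 ± 0.12). Egr1, an immediate early transcription factor, had 56.7, 54.2, 161 and 195 CPM in A0 and 91.3, 54.1 and 117 CPM in A1, with A1 culture 2 level with A0 cultures 1 and 2 and changes of 0.65 ± 0.19 and -1.03 ± 0.17 against the sets. Zc3h12a, an RNase that degrades inflammatory transcripts, had 22.6, 26.1, 7.34 and 8.50 CPM in A0 and 21.9, 9.78 and 9.47 CPM in A1, with -0.93 ± 0.22 and 0.69 ± 0.25. A1 culture 1 lay with A0 cultures 1 and 2 and the other A1 cultures with A0 cultures 3 and 4 for this gene. LOC103160859 and LOC100764764 had changes of -0.55 ± 0.18 and -0.44 ± 0.06 against cultures 1 and 2 and of 0.68 ± 0.20 and 0.56 ± 0.07 against cultures 3 and 4.

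The genes that set the A0 cultures apart changed against A1 in different ways. Among those higher in cultures 3 and 4, Pcp4l1, a calmodulin-binding peptide gene, had 3.46, 2.75, 13.7 and 7.87 CPM in A0 and 40.95, 52.04 and 55.8 CPM in A1 and She, an SH2 adaptor, had 0.961, 0.621, 3.43 and 1.79 CPM in A0 and 10.8, 11.4 and 9.47 CPM in A1, and both rose in A1 against both sets. The difference of She between the A0 sets did not pass the threshold without A0 culture 2 (adjusted p = 0.093) or without A0 culture 3 (0.11). Kif26b, a kinesin-like protein, had 2.02, 2.75, 12.8 and 8.18 CPM in A0 and 8.10, 9.78 and 12.5 CPM in A1, so that A1 differed from cultures 1 and 2 (2.10 ± 0.26, adjusted p = 1.2e-06) but not detectably from cultures 3 and 4 (-0.02 ± 0.19, adjusted p = 0.95). Plekhg4, a guanine nucleotide exchange factor, had 1.44, 2.04, 5.79 and 5.53 CPM in A0 and 7.66, 8.08 and 7.56 CPM in A1 and held against both sets (2.14 ± 0.22 and 0.46 ± 0.17). The A1 cultures lay at or above A0 cultures 3 and 4 for Pcp4l1, She and Plekhg4, and for Kif26b they lay among them.

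Among genes lower in cultures 3 and 4, Atp6v0d2, a subunit of the vacuolar proton pump, had 14.5, 18.02, 3.18 and 1.87 CPM in A0 and 1.03, 0.889 and 1.91 CPM in A1, with -3.63 ± 0.25 and -0.94 ± 0.34 against the sets. Gldc, the glycine decarboxylase, had 12.2, 12.6, 3.75 and 2.73 CPM in A0 and 2.36, 2.18 and 1.303 CPM in A1, with -2.70 ± 0.22 and -0.77 ± 0.27, and Sema4f, a semaphorin, had 19.9, 21.3, 7.01 and 4.36 CPM in A0 and 4.12, 3.72 and 3.21 CPM in A1, with -2.50 ± 0.18 and -0.64 ± 0.21. These 3 held against both sets. Cxcl1, a neutrophil chemokine, had 226, 238, 69.9 and 44.9 CPM in A0 and 104, 15.2 and 18.2 CPM in A1, with A1 culture 1 above A0 cultures 3 and 4 and the other A1 cultures below them. Its difference between the A0 sets did not pass the threshold in DESeq2 (adjusted p = 0.20). Nfkbiz, an NF-kappa-B cofactor, had 40.3, 54.6, 14.8 and 12.8 CPM in A0 and 21.2, 7.35 and 7.38 CPM in A1. Neither passed the threshold against cultures 3 and 4 (adjusted p = 0.42 for Cxcl1 and 0.38 for Nfkbiz), while both did against cultures 1 and 2. Of the 19293 genes tested, 2 had at least 5 CPM in A1 culture 1 and over 3 times the level of both other A1 cultures. They were Cxcl1 and the complement gene C3, the latter named after its values were seen.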

How the data were processed

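The RNA of 24 samples was sequenced from libraries of a stranded mRNA kit. The authors aligned the reads with STAR 2.5.4b to the Chinese hamster genome C_griseus_v1.0, counted them per gene with HTSeq 0.7.2 and deposited raw counts, not normalized, in 1 table of 28037 genes. Its 5 summary lines, among them reads not aligned, entered neither library sizes nor tests. HTSeq leaves out reads that align to several places, which lowers genes with near-identical copies. No strand setting for the counting is given in the sources used here, so overlapping and antisense genes are uncertain. No genome of that build was used, so no coordinates, sequences or promoter motifs are given.

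Samples were grouped by the labels into A0 (4) and A1 (3) cultures at stationary phase. Replicates are batch flask cultures by the study's methods, and the labels do not say how separate they were, so p-values measure the spread between these samples, which may be technical. The filter kept genes that had 1 count or more in 2 or more of the 7 libraries and whose variance exceeded 0, and these were compared in edgeR 4.0.16 in R 4.3.3 (TMM, glmQLFit and glmQLFTest, two-sided, Benjamini-Hochberg, threshold 0.05). The 2 A0 sets and A1 were tested in 1 fit of 3 groups. The interaction of line and phase was tested over 4 groups, with exponential A0 libraries of the same culture number summed. The biological coefficient of variation was 0.102, and 0.0563 in the fit of 3 groups. The procedures were tested on simulated counts. Intervals of ratios are exact, at 95%, and cover counting error only. The culture numbers were not used to pair the samples in the main fits. The deviations of A0 and A1 cultures with the same number from the mean of their line correlated at 0.05, -0.15 and 0.08. These values show no pairing but cannot exclude one, since the deviations of A0 hold the difference between its sets.

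The genes named were the 10 largest rises and falls with symbols among genes past the threshold between the lines and against both sets, with at least 5 CPM and no overlap, the largest rise and fall of the LOC genes, the largest rise and fall of each list that held against both sets, up to 5 genes that differed from the sets in opposite directions, and the 5 largest rises and falls between the sets. Some genes that these rules name are not reported here. The comparison and the lists were chosen with earlier results of these data known. Of 1126 list entries, 1017 matched by symbol and 39 through the RefSeq table, and 70 were not analysed here. Library totals, DESeq2 1.42.0 and its size factors, limma 3.58.1, other filters, both phases in 1 fit, a block for culture number within stationary phase and over both phases, separate fits of the sets and the fit without each culture were tried as alternatives. Reading the list counts under these alternatives was chosen after seeing the data. Python 3.11.15 with numpy 2.4.6, pandas 2.3.3, scipy 1.17.1 and matplotlib 3.10.9 was used for the rest.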

Additional observations from a re-analysis of the deposited data

Results flagged for a closer look

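The change of A1 against A0 differed between stationary and exponential phase, by the test of that difference in edgeR, for 5 of the 18 genes looked at. With culture number as a block over both phases, Angpt4, Drc7 and Mmp10 passed the threshold too. On the log2 scale the difference was 1.90 for Clcn5, 2.63 for Lat, 2.04 for Adm and 2.30 for Cdc42ep2, all larger at stationary phase, and -3.19 for Shank2. Reads that did not align, which no comparison used, averaged 7.93% at stationary phase in A0 (SD 1.45, n = 4), 10.99% in A1 (SD 0.638, n = 3) and 2.62% in CHO-S (SD 0.384, n = 3). What these reads are was not tested. For Abcc3, A0 culture 2 stood apart from the other A0 cultures, with a gap of 0.864 of the range of the group and past Dixon's critical value for 4 samples. It was 1 of 101 genes tested this way, where chance gives about 5.05.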

How the results depend on the processing

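The count of genes that differed between the lines was 6496, and 4863 to 6460 when single cultures were left out. The count against both sets was 5270, and 4391 to 4991 when single cultures were left out, 5256 in separate fits of the sets, and 1179 when a change of at least 2-fold was asked of each set. The count between the A0 sets was 2568, and 1460 to 2528 when single cultures were left out, with 1460 without A0 culture 1, 1710 without culture 2 and 1521 without culture 4. DESeq2 called 5951, 4310 and 1989 genes in these comparisons and limma 6528, 5382 and 2686. With culture number as a block, 6492 genes differed between the lines, although a pairing by number was not shown. Scaling by library totals moved the median of all genes from -0.002 to 0.056. Of 101 named genes, 87 kept their direction and their call between the lines in all alternatives run, as did 12 of 14 between the A0 sets and 12 of 18 in the difference between phases. Between the lines, those that lost the threshold under at least 1 were Ndufb4, Gins3, Hspa8, Plekhg4, Atp6v0d2, Cxcl1, Gldc, Sema4f and Nfkbiz, and the cause was not tested. Zc3h12a passed it with the block and Kif26b with the block or without A0 culture 3. The sign turned, without passing the threshold, for 4 genes. It turned for Egr1 with the block (0.0516), for LOC103160859 by library totals (0.00868) and limma (0.0878), and for LOC100764764 by library totals (0.0411) and limma (0.0605). When single cultures were left out, the range was -0.73 to 0.0611 for Zc3h12a, -0.24 to 0.20 for LOC103160859 and -0.18 to 0.18 for LOC100764764. The difference between phases then ranged from -0.72 to 0.66 for Calcrl, from -0.16 to 0.98 for Col3a1 and from -0.0872 to 0.59 for Camk4. Angpt4, Drc7 and Mmp10 passed the threshold for this difference with culture number as a block over both phases, and Mmp10 also without A0 culture 4 or with the first exponential libraries alone. Between the A0 sets, She lost it without A0 culture 2 or 3 and Cxcl1 in DESeq2. A1 culture 1 had the fewest counts, which limits genes of low level there.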
